A study of Mus musculus with 4 samples.

Results

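Gpnmb Mmp12 macrophages were the C1q-positive macrophages of injured muscle at 4 days post-injury (dpi4) that held transcripts of both Gpnmb and Mmp12. A cell was taken into this gate if its barcode held at least 500 genes and under 10% of its unique molecular identifiers (UMIs, 1 per captured transcript) from genes named mt-, at least 5 UMIs per 10000 of C1qa, C1qb and C1qc together, at least 5 UMIs per 10000 of Gpnmb and at least 1 UMI of Mmp12. Cells with UMIs of both Mki67 and Top2a, and cells with 3 or more UMIs per 10000 of the muscle genes Acta1, Ckm, Mylpf and Tnnc2, were left out, which took 60 and 27 cells from the gate in the control library and 27 and 6 in the library labelled KO. The gate held 396 cells of the control library and 264 of the library labelled KO, that is 660 of the 9721 barcodes at dpi4 and of the 20500 barcodes of the series. Gpnmb and Mmp12 chose the cells, so their own levels, and every gene of the same cells set against the rest, are a description and not a test.

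CD45+ cells were collected with magnetic beads from the tibialis anterior of male mice aged 8 to 12 weeks after cardiotoxin, a snake venom toxin that kills muscle fibers and leaves the stem cells that rebuild them. The control mice carried loxP-flanked Bach1 (Bach1 fl/fl) and the mice labelled KO carried the same allele with Lyz2-Cre, in which Cre is driven by the promoter of Lyz2 in monocytes, macrophages and neutrophils. Each of the 4 groups (control and KO, at 2 and 4 days) was 1 droplet library, so there is no replicate, no p-value was computed, and mouse, library and genotype cannot be told apart. All intervals are 95% and cover counting error only; they are exact except for those of differences between shares, which are Newcombe's, built from exact limits.

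The 2 dpi4 libraries held 80228489 and 62566722 UMIs over 5207 and 4514 barcodes, and 15.4% and 19.9% of their barcodes had 10% or more mt- UMIs. They shared 2 barcodes, with no identical counts and none in the gate. Bach1 did not separate the libraries: gate cells had 165 CPM (counts per 1000000 UMIs of the cells, summed) in the control and 179 in the one labelled KO, and counts per gene cannot show the loss of an exon. Lyz2, the gene that carries Cre, did separate them, with 17250 and 23.5 CPM. "The library labelled KO" is therefore written throughout.

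Macrophages that clear dead cells take up membrane lipid, break it down in lysosomes and either store, burn or export the cholesterol and fatty acids. Gpnmb is a lysosomal and surface glycoprotein that marks macrophages loaded with lipid, Mmp12 is the macrophage elastase that digests elastic matrix, and Spp1, Itgax, Cd9, Lpl and the fatty acid binding proteins are the genes such cells are known for in fat, plaque and regenerating muscle. Bach1 is a heme-sensitive repressor whose known targets include Hmox1 and genes of iron and glutathione handling.

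Short stretches of promoter are shown because genes described here have been tied to factors with well known recognition letters: AP-1, the MiT family that drives lysosome genes through E-boxes of the M-box and CLEAR type, and the antioxidant response element (ARE) read by Bach1 and its partners. The letters TGAGTCA (AP-1), TCATGTG (M-box), TCACGTG (CLEAR-type E-box) and TGACNNNGC (ARE core) were searched on both strands in the 250 bases before the start site of each RefSeq gene (GRCm38.p6). The AP-1 letters can overlap the ARE core. Capitals mark the match, which reads as the reverse complement where it lies on the other strand, and each line is written 5′ to 3′ on the strand of the gene.
Mmp12, M-box, chr9:7347275-7347313, plus strand: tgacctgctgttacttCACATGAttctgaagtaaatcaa
Mmp12, AP-1, chr9:7347314-7347352, plus strand: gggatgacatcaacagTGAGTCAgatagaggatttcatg
Itgax, AP-1, chr7:128129478-128129516, plus strand: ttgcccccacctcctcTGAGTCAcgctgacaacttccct
Dhrs9, AP-1, chr2:69380428-69380461, plus strand: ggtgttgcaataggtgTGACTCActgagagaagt
Ctsd, CLEAR-type E-box, chr7:142387904-142387942, minus strand: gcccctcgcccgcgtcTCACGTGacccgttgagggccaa
Lamp1, CLEAR-type E-box, chr8:13159083-13159121, plus strand: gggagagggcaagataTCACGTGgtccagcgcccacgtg
Gclm, ARE core, chr3:122245407-122245447, plus strand: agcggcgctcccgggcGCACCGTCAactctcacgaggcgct
The M-box of Mmp12 lay 83 bases and its AP-1 match 44 bases before the start site. Of all 27025 promoters, 5.16% held the AP-1 letters, 3.72% the M-box, 3.58% the CLEAR-type E-box and 11.5% the ARE core. Among the 89 genes that were higher in gate cells in both libraries (defined further on), 64 had a promoter sequence, of which 7.81%, 3.12%, 6.25% and 10.9% held them. Of the 22 lysosome genes 16 had one, of which 6 (37.5%) held the CLEAR-type E-box, 5 (31.2%) the ARE core, 3 (18.8%) the AP-1 letters and 1 (6.25%) the M-box. Of the genes higher in gate cells labelled KO, 55 of 76 had one and 6 (10.9%) held the ARE core, as did 18 (14.8%) of 122 among those lower, and 5 (33.3%) of 15 in the heme, iron and redox list. Hmox1, Slc40a1 and Mamdc2 were not matched to a promoter sequence. The promoters of Gpnmb, Mfge8, Spp1 and Ctsk held none of the 4 in this window. A match is a description of letters and no site was measured.

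The label's 5 markers were all at higher CPM in the gate than in the other C1q macrophages of the same library (2770 cells in the control, 2362 in the library labelled KO). Mfge8, a bridging protein that tethers dying cells to phagocytes, had 271 CPM in gate cells against 58.2 in the others in the control, a ratio of 4.66 (4.42 to 4.91), and 327 against 106 in the library labelled KO, a ratio of 3.07 (2.92 to 3.24). Spp1, the secreted matrix protein osteopontin, had 11780 against 4676 CPM, a ratio of 2.52 (2.5 to 2.54), and 15030 against 7946, a ratio of 1.89 (1.88 to 1.91). Itgax, the integrin chain CD11c, had 199 against 84.0 CPM, a ratio of 2.37 (2.25 to 2.5), and 151 against 82.8, a ratio of 1.82 (1.70 to 1.95). All 3 ratios were larger in the control, and those of Spp1 and Itgax in the library labelled KO lay under 2. Of the genes the rule used, Gpnmb had 3897 and 3169 CPM in gate cells, and Mmp12 had 542 and 665.

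Single gate cells differed widely in these markers. At 5000 UMIs drawn from every cell, 25.7% of control gate cells (21.4 to 30.4) and 25.8% of those labelled KO (20.6 to 31.5) held an Mfge8 UMI, against 46.0% and 53.0% before drawing. In T and NK cells, which should lack the gene, the drawn shares of Mfge8 were 12.8% and 5.26%. Spp1 was held by 98.5% and 97.7% of gate cells, but also by 74.4% and 63.2% of T and NK cells, so a share of cells with a Spp1 UMI carries little, and its level does: the median was 52.1 and 69.1 UMIs per 10000 in gate cells against 2.39 and 2.79 in T and NK cells. Ctsk, a collagen-cutting lysosomal protease, was held by 14.7% and 15.4% of gate cells and by 1 of 39 and 0 of 57 T and NK cells. The median depth of a cell was 24064.5 and 25172.5 UMIs in the gate and 6459 and 5615.5 in T and NK cells.

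Mmp12 was spread unevenly over the gate. In the control 184 of 396 cells held 1 Mmp12 UMI and 18 held 100 or more, and in the library labelled KO 102 of 264 held 1 and 14 held 100 or more, up to 331 and 296 UMIs in a cell. The top 10% of cells held 74.7% and 63.9% of the gate's Mmp12 UMIs. Single UMIs of Mmp12 were also found outside the gate. At 5000 UMIs per cell, 11.2% (9.78 to 12.8) and 10.9% (9.32 to 12.7) of all C1q macrophages past the Gpnmb limit held an Mmp12 UMI, against 7.17% (5.76 to 8.79) and 6.01% (4.66 to 7.61) of those under it and 2 of 39 and 4 of 57 T and NK cells (5.13% and 7.02%).

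The gate held 12.5% (11.4 to 13.7) of 3166 C1q macrophages in the control and 10.1% (8.93 to 11.3) of 2626 in the library labelled KO, which is -2.45 points for labelled KO minus control (-4.10 to -0.79). The cells with 1 Mmp12 UMI carried most of it. With at least 2 Mmp12 UMIs the shares were 6.70% (5.85 to 7.62) and 6.17% (5.28 to 7.16), or -0.527 points apart (-1.81 to 0.775). With every cell drawn to 5000 UMIs they were 7.18% and 6.72%, or -0.464 points apart (-1.84 to 0.93). With at least 10 Mmp12 UMIs per 10000, a limit added after the data were seen, 46 cells in each library passed, 1.45% (1.07 to 1.93) and 1.75% (1.29 to 2.33), and the sign turned to 0.299 points (-0.371 to 0.995). At dpi2 the same gate held 128 of 2133 C1q macrophages in the control (6.0%, 5.03 to 7.09) and 35 of 1125 in the library labelled KO (3.11%, 2.18 to 4.30). The share was higher at dpi4 than at dpi2 by 6.51 points (4.93 to 8.05) in the control and by 6.94 (5.31 to 8.47) in the one labelled KO. Fewer cells of a type and less of it in the collected sample cannot be told apart in shares.

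**Figure D1:**
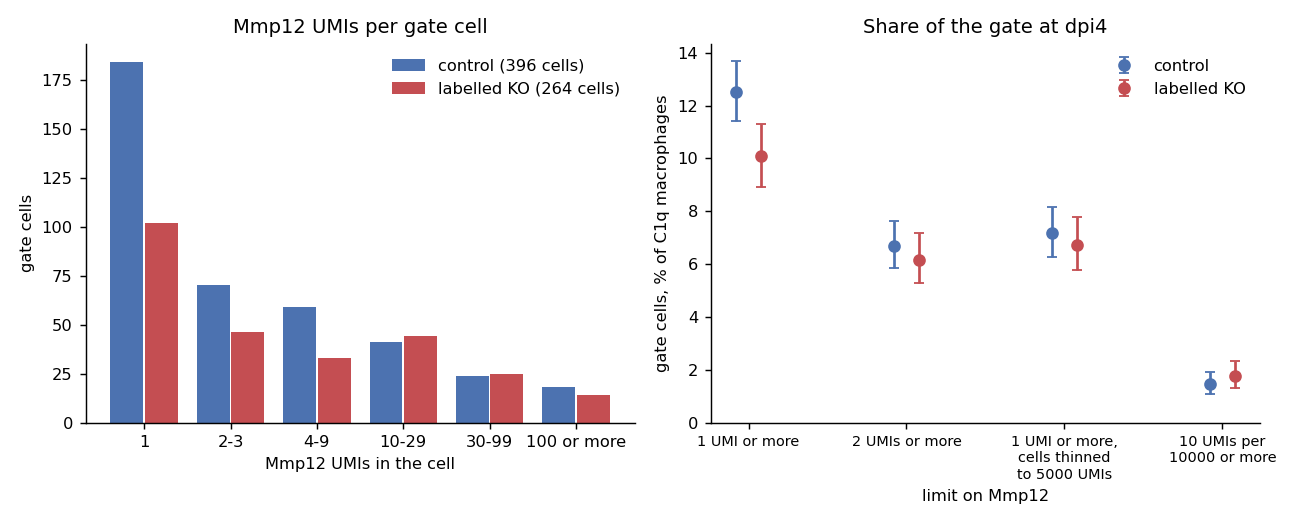
Left, the number of gate cells at dpi4 (y axis) by their Mmp12 UMIs (x axis) in the control (blue, 396 cells) and the library labelled KO (red, 264 cells). Right, gate cells as a percent of C1q macrophages under 4 limits on Mmp12, points with exact 95% intervals for counting error. The libraries stand at 12.5% and 10.1% with 1 UMI or more, and at 1.45% and 1.75% with 10 per 10000 or more.

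Gate cells carried a set of higher genes that both libraries shared. A gene was said to pass the size rule if its CPM differed 2-fold or more, up or down, the interval of that ratio did not span 1, and both groups together had 50 UMIs or more. Against the other C1q macrophages, 167 of 11510 genes (1.45%) were higher and 414 (3.6%) lower in the control. Of 11078 genes in the library labelled KO, 152 (1.37%) were higher and 668 (6.03%) lower. In both libraries 89 of 10994 genes (0.81%) were higher and 221 (2.01%) lower. The counts include genes of the rule: Mmp12 in both libraries and Gpnmb in the control are among the higher ones. The gate's cells were deeper than the others (medians of 24064.5 and 25172.5 against 15191 and 14293.5 UMIs), and CPM sets each group to its own total; the part of depth in the choice of cells was not tested.

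The 10 genes with the highest ratios in both libraries, ranked by the smaller of the pair, were Mmp12, whose place the rule fixed, and then Mamdc2, Prss46, Fabp7, Tmem178, Spsb4, Chst11, Sdc1, Dhrs9 and Trim29. Mamdc2, a secreted proteoglycan, had 28.5 and 27.8 CPM in gate cells against 3.73 and 3.75 in the others (log2 ratios of 2.93 and 2.89). Sdc1, the heparan sulfate proteoglycan syndecan-1, had 18.4 and 17.6 CPM against 4.42 and 2.77, and Chst11, which sulfates chondroitin chains, 24.6 and 23.5 against 5.69 and 4.89. Dhrs9, a retinol dehydrogenase, had 41.4 and 32.2 CPM against 10.2 and 6.14. Fabp7, a fatty acid binding protein best known from brain, had 12.1 and 11.9 CPM against 1.98 and 1.52. Prss46 belongs to a serine protease family.

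Genes of lipid-associated macrophages, a list of 19, were all at a higher level in the gate in both libraries, with median log2 ratios of 1.11 and 0.92 against -0.06 and -0.13 over all genes, and 10 and 8 of them passed the size rule. Anxa1, an annexin that damps inflammation, had 599 and 427 CPM against 207 and 149 (log2 ratios of 1.54 and 1.52). Cd9, a tetraspanin, had 953 and 1068 against 357 and 525, Lgals3 6117 and 6185 against 2521 and 2581, and Capg 640 and 571 against 296 and 261. Trem2, the lipid-sensing receptor for which such cells are often named, had 1256 and 1086 CPM against 992 and 940 and did not pass (log2 ratios of 0.34 and 0.21). The list includes Spp1 and Itgax, which are among the label's markers.

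Of 18 genes of lipid uptake, storage and efflux, 13 and 12 were at a higher level and the same 4 passed the size rule in each library (medians of 0.40 and 0.33). Cd36, the scavenger receptor that takes up fatty acids and oxidized lipoprotein, had 604 and 1084 CPM against 217 and 417. Lpl, the lipase that frees fatty acids from triglyceride, had 1371 and 2540 against 530 and 1042. Fabp5 had 6046 and 5749 against 2754 and 2818, and Fabp4 315 and 487 against 136 and 170. Among the members that did not pass, the scavenger receptors Msr1 and Olr1 had 134 and 216 CPM against 99.4 and 138, and 16.9 and 9.23 against 9.38 and 7.90. Apoe, a protein of the lipoproteins that carry cholesterol, had 19580 and 13230 CPM against 28870 and 21310 (log2 ratios of -0.56 and -0.69), Abca1 435 and 455 against 522 and 573, and Abcg1 228 and 231 against 212 and 260.

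The 22 lysosome genes had medians of 0.34 and 0.25 against -0.06 and -0.13 over all genes. Of the 22, 21 and 16 were at a higher level, and 3 passed in each library. These were Ctsk (106 and 98.6 CPM against 22.0 and 26.1), Ctsl (2766 and 2619 against 1094 and 1076), both cysteine proteases, and Atp6v0d2 (18.5 and 12.0 against 8.80 and 4.76), a subunit of the proton pump. Of the genes whose promoters are printed above, Ctsd had log2 ratios of 0.61 and 0.37 and Lamp1 0.14 and -0.02, neither past the size rule. Of the factors themselves, Mitf had 70.0 and 80.7 CPM against 67.3 and 82.0 and Tfeb 41.6 and 42.8 against 38.2 and 42.0. Glycolysis genes had medians of 0.58 and 0.61, with Pgam1 past the size rule in both libraries (480 and 583 against 219 and 278 CPM). Cholesterol and fatty acid synthesis genes had medians of 0.48 and 0.27, with Sqle, the squalene epoxidase, past in both (8.53 and 12.0 against 2.65 and 4.73 CPM).

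Among matrix proteases, Mmp8, a collagenase, passed with 20.6 and 21.8 CPM against 7.78 and 10.1, and Adam8 with 213 and 455 against 92.4 and 200. Mmp13, another collagenase, had 32.3 and 63.9 CPM against 13.4 and 38.5 and passed in the control alone, where 1 cell held 34.5% of its gate UMIs. On the lower side Timp3, an inhibitor of such proteases, passed in both libraries (1.58 and 0.140 CPM against 3.36 and 2.18), and Mmp2 and Mmp9 passed in the library labelled KO (3.50 against 7.87, and 0.700 against 1.94). In the gate Timp3 rested on 17 UMIs in 4 control cells and 1 UMI labelled KO, and Mmp9 on 5 UMIs labelled KO. Of the clearance list only Mfge8 and Itgb3 passed, in both libraries, Itgb3 on only 25 and 19 gate UMIs, in 12 cells of each library. Mertk, Axl and Gas6, a receptor pair for dying cells and its ligand, were at a lower level in the gate (log2 ratios of -0.19 and -0.29, -0.46 and -0.94, and -0.43 and -0.67). The growth factors had medians near 0. Igf1, which drives muscle growth, was level with 376 and 689 CPM in gate cells against 377 and 690 in the others, and Csf1, the macrophage growth factor, had 52.6 and 56.4 against 20.9 and 30.1.

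Among the lists at a lower level in the gate, resident-like genes had median log2 ratios of -1.34 and -1.04, with 9 and 7 of the list past the size rule. Lyve1, Cd163, Mrc1 and Clec10a passed in both libraries, as did the complement receptor Vsig4 with 0.0927 and 0.140 CPM (1 UMI in each library) against 4.11 and 3.70. Mrc1, the mannose receptor, had 177 and 220 CPM against 415 and 452. Over all genes the medians of this comparison were -0.06 and -0.13, so more genes stood lower than higher. MHC class II genes were at a lower level in 7 of 7 in both libraries (medians of -0.96 and -0.66), with Cd74, the invariant chain, at 1381 and 947 CPM against 2685 and 1479. Interferon response genes were at a lower level in 14 of 14 in both (medians of -0.84 and -0.69), and the chemokine Cxcl10 passed in both with 64.1 and 58.2 against 190 and 146 CPM. Il1b had 275 and 101 CPM against 556 and 319 and passed in both. Mrc1 in the library labelled KO and Il1b in the control lay close to 2-fold. Scaling by edgeR TMM factors (log2 shifts of 0.106 and 0.0437) puts these 2 ratios under it. Of the other genes with the lowest ratios, S100a9 belongs to neutrophils and monocytes, and Aplnr, Gpihbp1 and Sox18 to endothelium. No gate cell held 3 or more UMIs per 10000 of the endothelial markers, against 20 (0.722%) and 16 (0.677%) of the others, and 16 (4.04%) and 1 (0.379%) gate cells did so for the neutrophil markers, against 151 (5.45%) and 72 (3.05%). Summed fibroblast markers stood at 350 and 7.14 CPM in the gate against 316 and 206 in the others, where 1 cell labelled KO held 4357 of 7758 such UMIs, and 4 of 4 scored genes passed as lower in the library labelled KO (median of -4.68) and none of 5 in the control (0.12). Without 1 control gate cell, described further on, the control gate stood at 78.0 CPM, under the 316 of the others. The part of these cells in the lower genes was not tested.

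**Figure D2:**
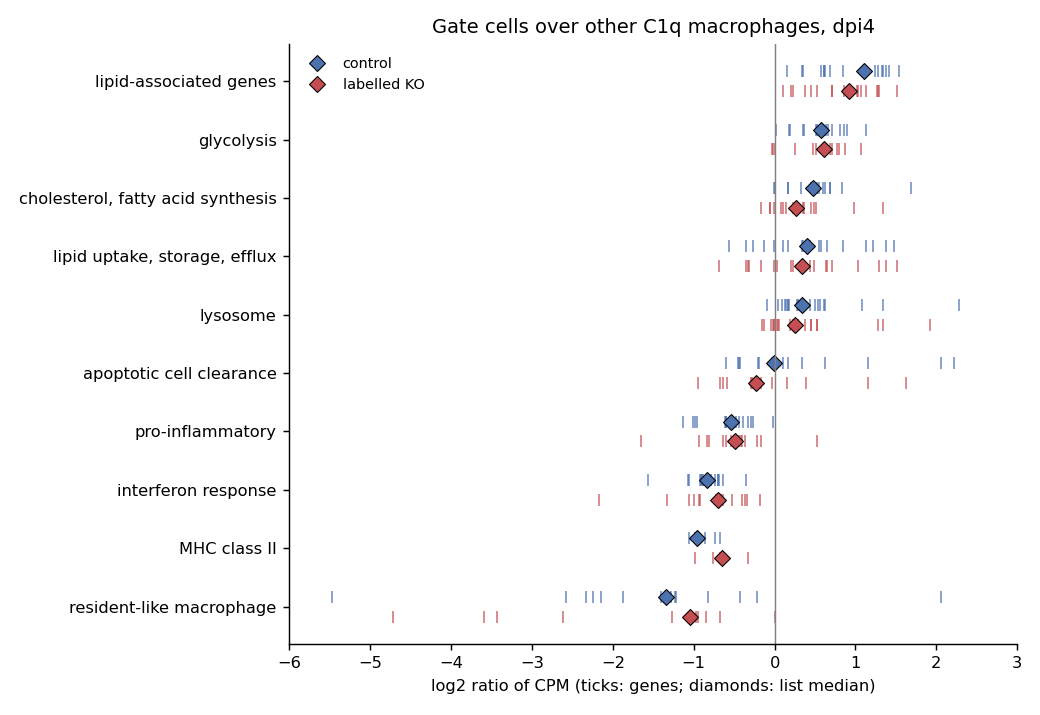
Ratio of gate cells over other C1q macrophages at dpi4 on a log2 scale (x axis) for 10 gene lists (y axis), in the control (blue) and the library labelled KO (red). Ticks are genes and diamonds list medians, which run from 1.11 and 0.92 for lipid-associated genes to -1.34 and -1.04 for resident-like genes.

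Some of these ratios were smaller against cells that shared the high Gpnmb. The C1q macrophages past the Gpnmb limit with no Mmp12 UMI numbered 1409 and 1131. Against them the lipid-associated list had medians of 0.55 and 0.53, with 18 and 15 of 19 genes at a higher level and 3 and 2 past the size rule (10 and 8 against all other C1q macrophages), and glycolysis had 0.52 and 0.52, while the lysosome list had 0.08 and -0.05 against 0.00 and -0.04 over all genes. Lipid uptake, storage and efflux had medians of 0.23 and 0.23 against these cells, with 12 and 10 of 18 genes at a higher level and 2 past in each library. The all-gene median of 0.00 means about as many genes higher as lower in the control, and -0.04 fewer higher than lower labelled KO. Against all other C1q macrophages the medians of this list were 0.40 and 0.33 and 4 passed. Ctsk had 106 and 98.6 CPM against 29.8 and 36.5, and Cd9 953 and 1068 against 451 and 678, while Ctsd had 7719 and 11660 against 6985 and 12130. UMIs of Ctsk and Mfge8 sat in few gate cells: the top cell alone held 16.2% and 21.4% of its UMIs, and for Mfge8 the top cell held 14.3% and 20.7%. Resident-like genes had medians of -0.51 and -0.57 and interferon response genes -0.35 and -0.36 against these cells, and MHC class II -0.22 and 0.83. By the size rule, 161 (1.5%) of 10705 genes were higher and 63 (0.589%) lower than in these cells in the control. Of 10261 genes in the library labelled KO, 124 (1.21%) were higher and 153 (1.49%) lower, and both lower counts were under those against all other C1q macrophages (414 and 668).

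Levels ran by degrees along Gpnmb. From C1q macrophages with no Gpnmb UMI to those with 20 or more per 10000, Spp1 went from 1057 to 12410 CPM in the control and from 690 to 18380 in the library labelled KO, Fabp5 from 506 to 6503 and from 347 to 5960, and Mfge8 from 14.8 to 232 and from 17.6 to 301. Cd74 went the other way, from 5774 to 907 and from 4016 to 296. Apoe was highest in the middle of the control's range, with 33780 CPM at 5 to under 10 Gpnmb UMIs per 10000 against 22380 at none and 22310 at 20 and over. Just inside the limit (5 to under 6; 106 and 73 cells with or without Mmp12) Spp1 had 2053 and 3388 CPM, and just outside it (4 to under 5; 109 and 92 cells) 2659 and 2580. Of those, 13 and 11 cells inside and 18 and 10 outside held an Mmp12 UMI. Within the gate, over 389 and 260 cells drawn to 5000 UMIs, Spearman's rho of Gpnmb was 0.534 and 0.446 with Spp1 and 0.537 and 0.442 with Fabp5, but 0.119 and 0.0494 with Mmp12; cells of a library share their free RNA and these values are given without a test.

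To describe the spread within the gate, with no test since Mmp12 chose the cells, gate cells were split after the values were seen at 1 and at 10 Mmp12 UMIs per 10000, into 210, 140 and 46 control cells and 112, 106 and 46 cells labelled KO, with median depths of 23532, 23661.5 and 27147.5 UMIs and of 25275.5, 23429.5 and 29272. The 46 cells of the high class held 76.7% and 77.2% of the gate's Mmp12 UMIs. Of 6945 genes, 81 (1.17%) were higher and 93 (1.34%) lower in the high class than in the low class by the size rule in both libraries. Ctsk had 41.3, 108 and 360 CPM over the low, middle and high class of the control, and 48.8, 44.7 and 288 in the library labelled KO. Mamdc2 had 11.7, 26.6 and 99.8 and then 9.43, 20.4 and 76.3, Sdc1 8.85, 17.8 and 58.3 and then 5.72, 13.6 and 47.6, and Chst11 10.1, 20.2 and 93.5 and then 8.08, 26.1 and 48.9. All 4 stood highest in the high class in both libraries. Others that stood higher in the high class in both libraries were AA467197, Mical2 and Vcl, which act on or bind actin in the latter 2 cases, Wfs1, Cd200, an inhibitory ligand for myeloid cells, Tnip3 and Tes.

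Other genes were at a lower level in the high class. Ccl5 had 42.7 CPM in the low class and 2.11 in the high class of the control, and 25.3 and 0 in the library labelled KO. Few cells carried it, and 1 cell held 36.7% and 58.2% of the gate's Ccl5 UMIs. Of those of Cxcl9, 1 cell held 78.0% and 64.1%. Cxcl9, Cxcl10, P2ry12, Hes1, Zfp36l1 and Ednrb were lower by the size rule in both libraries, Zfp36l1, an RNA decay factor, with 395 against 101 CPM and 371 against 107. Apoe had 23820, 16400 and 11020 CPM over the classes of the control and 15750, 13450 and 7955 in the library labelled KO. Slc40a1, the iron exporter, had 50.6, 58.9 and 10.5 CPM and 862, 606 and 368. Within each library, 264 (3.27%) of 8082 genes passed as higher and 571 (7.07%) as lower in the high class of the control, and 153 (2.19%) and 196 (2.81%) of 6971 in the gate labelled KO. Glycolysis genes were at a higher level in the high class in 15 of 15 in both libraries, of which 7 and 2 passed (median log2 ratios of 0.98 and 0.40 against -0.06 and -0.02 over all genes). Macrophage identity genes were at a lower level in 10 of 11, of which 5 and 1 passed (medians of -0.86 and -0.52). Fibroblast markers moved with the classes of the control, with 4 of 4 scored genes lower in the high class (median of -4.68). The cell that held 77.9% of the control gate's fibroblast marker UMIs, 2943 of 3778, lay in the low class with 1 Mmp12 UMI in 81408. Cells with 3 or more UMIs per 10000 of these markers numbered 3, 5 and 0 over the classes of the control and 0, 1 and 0 in those labelled KO. Their part in the class ratios was not tested.

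The libraries parted over some genes as Mmp12 went up. Spp1 had 9290, 13140 and 18100 CPM over the classes of the control but 15530, 15870 and 12640 in the library labelled KO. H2-Ab1, an MHC class II chain, had 641, 653 and 696 CPM in the control and 229, 598 and 992 in the library labelled KO, and Cd74 had 1377, 1290 and 1631 and then 443, 1099 and 1664. Ccr2, the receptor that brings monocytes in from blood, had 128, 153 and 61.2 CPM in the control and 29.3, 68.9 and 113 in the library labelled KO. The monocyte list as a whole was split. In the high class 4 of 9 scored genes were at a higher level in the control and 4 of 7 in the library labelled KO. Over all genes it was 4425 of 9735 and 4253 of 8871. Ly6c2, another gene of that list, was lower in the high class by the size rule in both libraries. In the gate labelled KO, the cells richest in each gene that together reached 50% of its UMIs numbered 9 of 264 for Ccr2, 14 for H2-Ab1 and 16 for Cd74, against 31, 31 and 37 of 396 control cells. The difference between these patterns was not tested. Cells with 3 or more UMIs per 10000 of the dendritic cell markers numbered 4 and 3 in the gate, and their part was not tested.

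**Figure D3:**
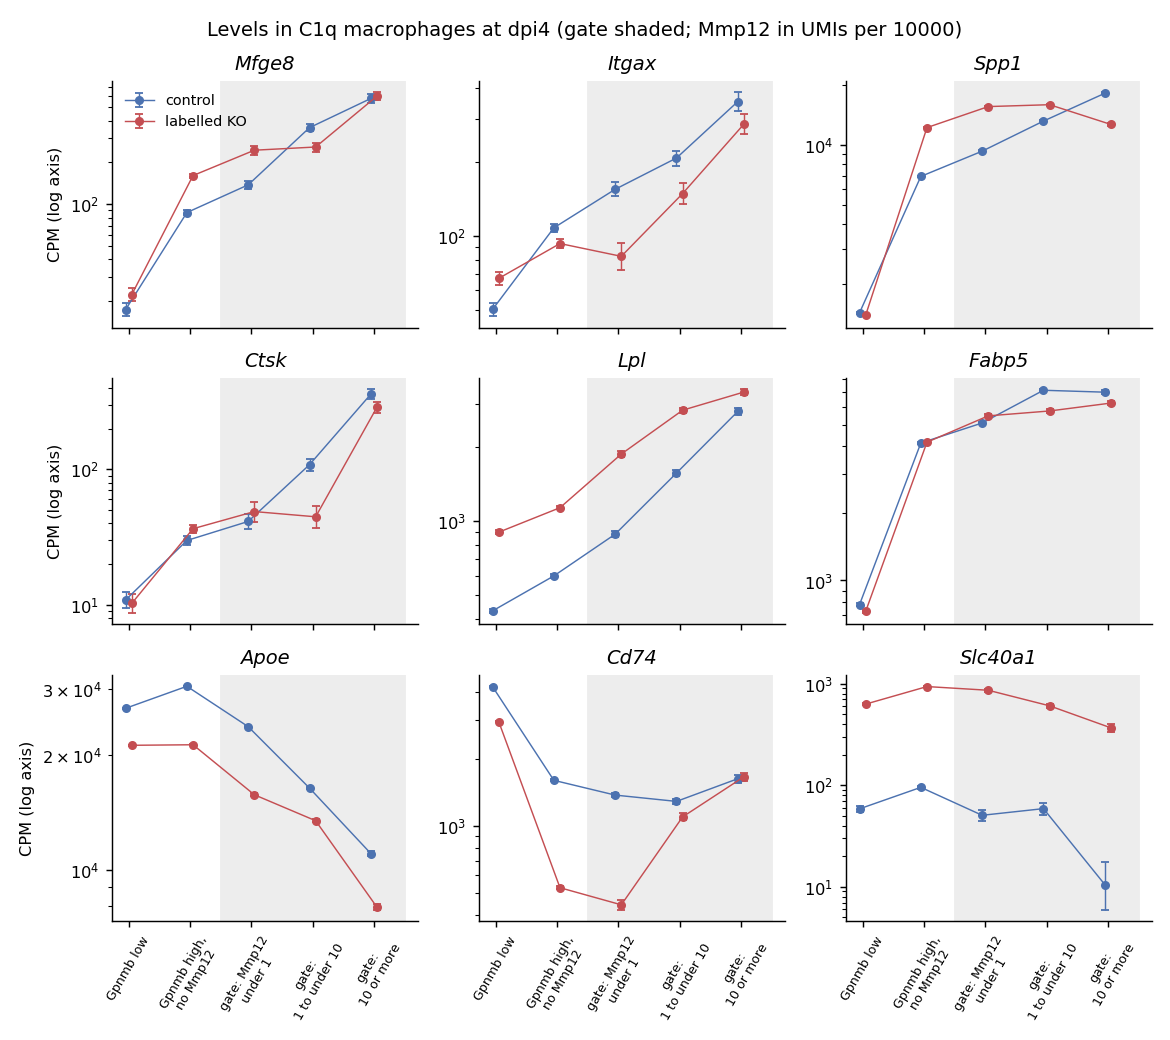
Levels in CPM (log y axis) of 9 genes at dpi4 in C1q macrophages with low Gpnmb, with high Gpnmb and no Mmp12, and in the 3 classes of gate cells by Mmp12 UMIs per 10000 (shaded), for the control (blue) and the library labelled KO (red), with exact 95% intervals for counting error. Ctsk climbs to 360 and 288 CPM in the high class, Apoe drops to 11020 and 7955, and Cd74 goes from 443 to 1664 CPM over the classes labelled KO.

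Between the libraries, heme and iron genes were at a higher level in gate cells labelled KO. Of 9666 genes, 76 (0.786%) passed the size rule as higher in gate cells labelled KO, and 166 (1.72%) as lower, a balance of 31.4% higher that was 48.5% (80 and 85 genes) among cells with under 5% mt- UMIs. Hmox1, the enzyme that opens the heme ring, had 436 CPM in the control and 8713 in the one labelled KO, a log2 ratio of 4.32 (4.28 to 4.36). Spic, the transcription factor of iron-recycling macrophages, had 8.90 and 170, a ratio of 19.1 (15.5 to 23.8), and Slc40a1 had 48.2 and 661, a ratio of 13.7 (12.5 to 15.0). Slc48a1, a heme transporter, had 138 and 577 CPM, Gclm, which helps make glutathione, 71.6 and 291, and the ferritin chain Fth1 18110 and 55280. Of the 19 heme, iron and redox genes with enough UMIs, 17 were at a higher level and 8 passed the size rule, with a median log2 ratio of 0.76 against -0.03 over all genes. In the other C1q macrophages the same list had a median of 0.73, with log2 ratios of 3.93 for Hmox1 and 3.35 for Slc40a1 beside 4.32 and 3.78 in the gate. Nfe2l2, whose product reads the same element, was at a lower level (352 and 259 CPM), and Ftl1 had 17850 and 24090. In the library labelled KO 36 of 57 T and NK cells held an Hmox1 UMI at 5000 UMIs. Their median was 1.58 per 10000 against 90.9 in gate cells. The source of these UMIs, such as free RNA, was not tested.

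Jag1, a Notch ligand, had 4.45 and 34.3 CPM in gate cells, a ratio of 7.70 (5.64 to 10.7), against 3.85 and 13.7 in the others, a ratio of 3.57 (3.0 to 4.26). Lyz1, whose reads can be shared with its near copy Lyz2, had 61.5 and 439 CPM and is uncertain. Marco, a scavenger receptor, had 0.927 and 7.28 CPM, on 10 UMIs in 6 cells and 52 UMIs in 13 cells, and Tfrc, the transferrin receptor, 50.9 and 107. Retnla had 4.73 and 22.0 CPM, but 1 cell of the library labelled KO held 56.7% of its UMIs there.

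Between the libraries, the lipid-associated list had a median log2 ratio of -0.07, lipid uptake, storage and efflux 0.12 and the lysosome list 0.08, and none of their members passed the size rule. Inside the lipid list, Lpl (1371 and 2540 CPM, log2 ratio of 0.89) and Cd36 (604 and 1084, 0.84) stood highest, Fabp4 had 315 and 487 CPM (0.63), and Apoe was lower (19580 and 13230, -0.57). Of the 10 genes with the highest gate ratios, Tmem178 passed the size rule as lower in the library labelled KO, with 9.27 and 3.64 CPM (log2 ratio of -1.35), on 100 and 26 UMIs. Igf1 had 376 and 689 CPM (0.87), the same ratio as in the other C1q macrophages. Cholesterol and fatty acid synthesis genes were at a higher level in 15 of 17 (median of 0.37, and 0.55 in the others). Of the matrix protease list, with a median of -0.00474, Adam8 passed as higher with 213 and 455 CPM and Mmp2 as lower with 7.23 and 3.50, where 1 control cell held 38.5% of the Mmp2 UMIs.

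MHC class II genes were at a lower level in the library labelled KO in 7 of 7 genes, with a median of -0.38 in the gate and -0.62 in the other C1q macrophages, and 0 passed the size rule in either; 46.2% of all genes were at a higher level in the gate labelled KO. Among those past the Gpnmb limit with no Mmp12 UMI the median was -1.22, and Cd74 had 1604 and 528 CPM there against 1381 and 947 in the gate. Monocyte genes had a median of -0.995 in the gate and -0.11 in the others, with 4 of 10 past the size rule in the gate: Ccr2 (128 and 62.0 CPM), Plac8 (28.3 and 9.51), Vcan (4.17 and 1.96) and Hp (6.77 and 2.24). In the gate 8 of the 10 were at a lower level and 2 at a higher one, with Ly6c2 highest (log2 ratio of 0.35). In the cells past the Gpnmb limit with no Mmp12 UMI the monocyte list had a median of -0.34, with 8 of 10 at a lower level, and Ccr2 had 138 and 56.3 CPM. In those under the Gpnmb limit its median was 0.05, with 6 of 10 at a higher level against 59.3% of all genes. Il1b had 275 and 101 CPM, a log2 ratio of -1.44 against -0.80 in the others and -1.23 in those past the Gpnmb limit with no Mmp12 UMI. S100a8, of neutrophils and monocytes, was likewise lower, and 16 control gate cells against 1 labelled KO held 3 or more UMIs per 10000 of the neutrophil markers.

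1 cell held much of the UMIs behind the lowest ratios. Beside Lyz2 (17250 and 23.5 CPM, 734-fold lower), the lowest were Meg3, Col1a1, Col3a1, Col5a2, Postn, Itm2a and Rgs5, among them collagens of fibroblasts and the vessel wall gene Rgs5. The control gate cell with most fibroblast marker UMIs was the top cell for 6 of these 8 genes. It held 81408 UMIs, 4th most of the control gate, with 45.7 UMIs per 10000 of C1q, 7.74 of Gpnmb and 1 UMI of Mmp12, and it carried 77.9% of the fibroblast marker UMIs of the control gate. For Col1a1 it held 75.8% and for Rgs5 91.8% of the control gate's UMIs. The summed fibroblast markers stood at 350 CPM in the control gate, 78.0 without that cell and 7.14 in the gate labelled KO, against 316 and 206 in the others. Without it 125 of the 166 lower genes and all 76 higher genes stayed past the size rule. With each gene's own top cell left out in turn, 102 of the 166 lower and 67 of the 76 higher genes stayed. Without the 8 control cells and 1 cell labelled KO that held 3 or more fibroblast marker UMIs per 10000, 103 and 75 stayed, and among the lowest ratios were those of Lyz2, Slc15a2 (19.7 and 0.700 CPM, in 80 and 4 cells), Bex1, Ephx1 (24.0 and 7.84), S100a8 (55.1 and 18.2), Plac8 and Il1b. Slc15a2 carries dipeptides into the cell and Ephx1 opens epoxides. These cell sets were left out after the data were seen.

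**Figure D4:**
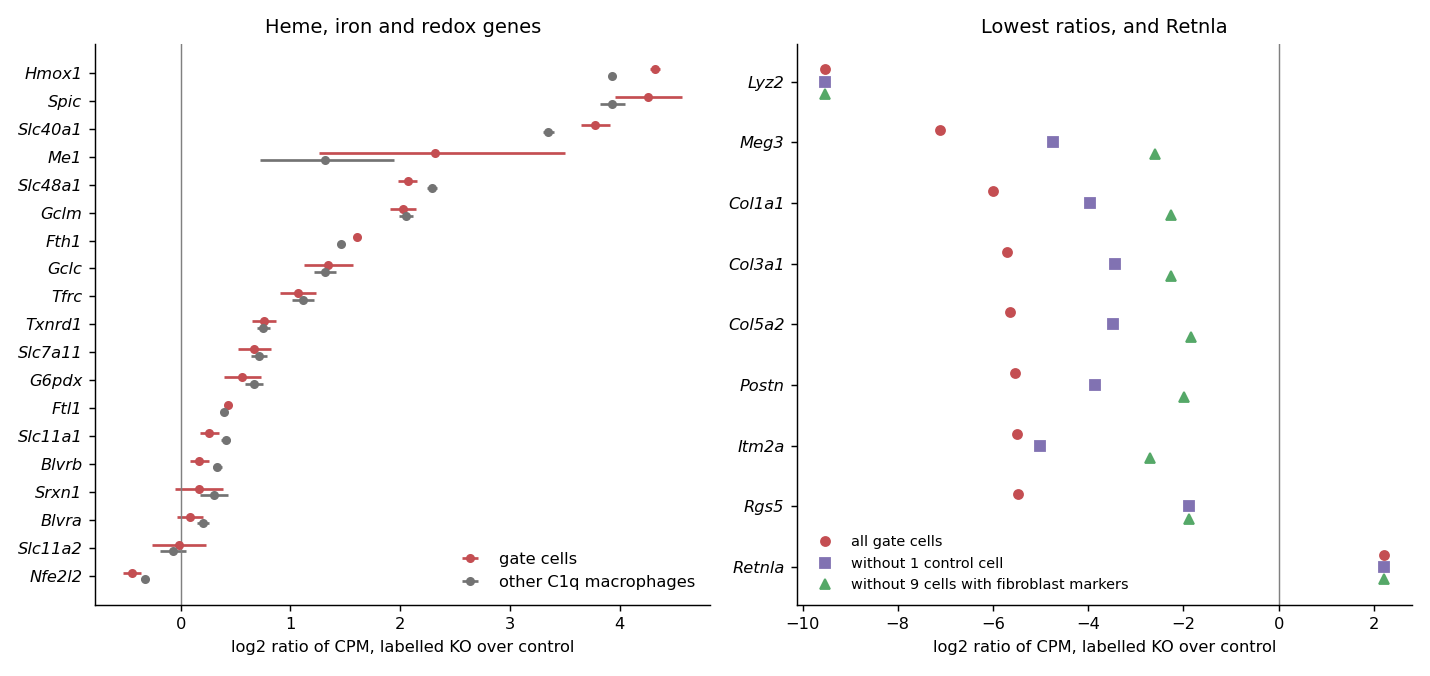
Ratio of the library labelled KO over control on a log2 scale (x axes). Left, heme, iron and redox genes in gate cells (red) and other C1q macrophages (grey) with exact 95% intervals for counting error, where Hmox1 stands at 4.32 and 3.93. Right, the genes with the lowest ratios and Retnla in all gate cells, without 1 control cell and without 9 cells with fibroblast markers; Lyz2 stays near -9.52 while the stromal genes move toward 0.

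The same gate at dpi2 was set against the other C1q macrophages of its library, where 125 (1.21%) of 10315 genes passed as higher and 459 (4.45%) as lower in the control, and 184 (1.84%) and 408 (4.09%) of 9975 in the library labelled KO. The lipid-associated list had medians of 0.64 and 0.96, with 17 and 18 of 19 genes at a higher level and 4 and 9 past (10 and 8 at dpi4). Of 22 lysosome genes 21 and 20 were at a higher level and 2 and 3 passed, and interferon response genes were at a lower level in 14 of 14 in both libraries, with 9 and 5 past. Cholesterol and fatty acid synthesis genes, with medians above 0 at dpi4, had medians of -0.62 and -0.13 at dpi2. Of 16, 1 and 6 were at a higher level (6.25% and 37.5%), against 42.6% and 42.5% of all genes, whose medians were -0.05 and -0.05. The share labelled KO thus lay near that of all genes. MHC class II genes were at a higher level in 0 of 7 in the control, as at dpi4, and in 4 of 7 in the library labelled KO. The list was near level there, with a median of 0.04 and a highest log2 ratio of 0.11. None passed as higher there and 2 passed as lower. The summed lipid-associated genes stood at 77740 and 67830 CPM in the dpi2 gate against 57610 and 65060 at dpi4. Other genes differed between the days. In both libraries 243 of 8351 genes (2.91%) were higher and 96 (1.15%) lower at dpi4 by the size rule. Mfge8 had 40.9 and 37.3 CPM at dpi2 against 271 and 327 at dpi4, and Itgax 29.2 and 41.1 against 199 and 151. These markers of the label were thus lower in the dpi2 gate than in the dpi4 gate. Within dpi2 they were still at a higher level in the gate than in the other C1q macrophages. The log2 ratios were 1.05 and 1.87 for Mfge8 and 0.55 and 1.49 for Itgax. Apoe had 4986 and 5422 CPM at dpi2 against 19580 and 13230, Sepp1, which carries selenium, 407 and 563 against 2894 and 1915, and the fractalkine receptor Cx3cr1 16.3 and 39.6 against 174 and 142. Slc40a1 had 2.99 and 71.4 against 48.2 and 661, while Hmox1 had 768 and 7590 against 436 and 8713. The genes that were lower at dpi4 included Ccl2, which draws monocytes (1760 and 1671 CPM against 94.9 and 113), Jag1 (84.0 and 181 against 4.45 and 34.3) and the lipid droplet coat gene Plin2 (2129 and 2153 against 810 and 698).

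By the size rule, 698 (7.52%) of 9277 genes were higher and 289 (3.12%) lower at dpi4 in the control. In the library labelled KO 473 (5.65%) of 8377 were higher and 294 (3.51%) lower. MHC class II genes were at a higher level at dpi4 in 7 of 7 in both libraries, of which 7 passed in the control (median of 3.15) and 2 in the library labelled KO (0.45); H2-Ab1 had 73.7 and 387 CPM at dpi2 against 652 and 529. Interferon response genes had medians of -0.47 and 1.28 over time against -0.03 and -0.07 over all genes, with 5 and 13 of 14 at a higher level at dpi4. Ifit1, an interferon-induced RNA binder, had 89.0 and 14.8 CPM at dpi2 against 45.0 and 53.0, and Isg15 was the exception in the library labelled KO, with 60.6 against 59.9. Spp1 had 22820 and 16630 CPM at dpi2 against 11780 and 15030, and Fabp5 7952 and 7547 against 6046 and 5749. The dpi2 gate of the library labelled KO rests on 35 cells.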

How the data were processed

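Droplet single-cell RNA sequencing (10x 3′ chemistry, named as v2 in the labels and as v3.1 in the study's methods) of CD45+ muscle cells was processed by the authors with Cell Ranger 6.1.2 (submitters' processing notes), and the deposited matrices hold raw UMI counts per gene and barcode (27998 genes), with no barcode under 500 UMIs. Nothing was normalized before deposit, and the authors' cell annotation was not used here. Cells and gene lists were chosen with earlier results of these data known.

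UMI counts of each group of cells were summed per library and given as CPM, 1 library per group, with no test. Ratios have exact conditional binomial intervals, CPM exact Poisson, shares Clopper-Pearson and differences of shares Newcombe intervals from exact limits, all 95%. C1q macrophages passed every limit but Gpnmb and Mmp12. List medians used genes with at least 20 UMIs in the pair, without the genes of the gate, and put a count of 0 at 3 counts. T and NK cells held at least 2 UMIs of their markers and under 5 C1q UMIs per 10000. PCR copies are collapsed by UMI; intervals still cover counting error only.

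Named genes were the label's 5 markers, the 10 highest and 6 lowest gate ratios in both libraries, the 8 highest and 8 lowest ratios of the library labelled KO over control with at least 200 UMIs (without mt-, Rpl, Rps, Gm and Rik names), members of the fixed lists, and Bach1, Lyz2 and Lyz1. The classes by Mmp12, their genes, Slc15a2, Bex1, Ephx1 and S100a8 were named after values were seen. A few genes are not reported here. Alternatives were other limits on Gpnmb, Mmp12, C1q, genes and mt-, thinning to 5000 UMIs, doublet removal (Scrublet in scanpy 1.11.5, at 0.8% per 1000 barcodes), edgeR 4.0.16 TMM scaling, other size rules and sets of cells left out. No doublet caller was used in the values as given. The ratio script was tested on simulated data. Python 3.11.15, numpy 2.4.6, scipy 1.17.1, pandas 2.3.3 and R 4.3.3 were used. Promoters came from RefSeq (GRCm38.p6).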

Additional observations from a re-analysis of the deposited data

Results flagged for a closer look

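Rgs5, a gene of vessel wall cells, had a log2 ratio of gate cells over other C1q macrophages of 1.67 in the control and -4.29 in the cells labelled KO. It stood out because the signs are opposite, and 1 control cell held 91.8% of the control gate's Rgs5 UMIs. The difference was not tested, since each group is 1 library.

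Retnla, a secreted product of alternatively activated macrophages, had a log2 ratio of the library labelled KO over control of 2.22 in gate cells and -1.96 in the other C1q macrophages. It stood out for the same reason, 1 cell of the library labelled KO held 56.7% of its UMIs in the gate, and the difference was not tested.

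Ccr2 had a log2 ratio of the high over the low Mmp12 class of gate cells of -1.07 in control cells and 1.95 in those labelled KO, again of opposite sign and not tested. Ccr2 was found in 74 of 264 gate cells labelled KO, and 1 of them held 14.0% of its 443 UMIs.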

How the results depend on the processing

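The share of the gate (labelled KO minus control, -2.45 points) was -0.527 with at least 2 Mmp12 UMIs, -0.464 with cells thinned to 5000 UMIs and 0.299 with at least 10 Mmp12 UMIs per 10000. Genes past the size rule between libraries (242) numbered 135, 66 and 143 under the same 3 limits, 710 at 1.5-fold, 75 with at least 200 UMIs and 630 with no filter on low counts. Against other macrophages the control count (581) was 1125 with at least 2 Mmp12 UMIs, 1609 with at least 10 per 10000, 1433 at 1.5-fold, 252 with at least 200 UMIs and 1055 when the others were under the Gpnmb limit, and the count labelled KO (820) was 1794, 335 and 1303 under the last 3. The share of higher genes between libraries moved from 31.4% to 48.5% with under 5% mt- UMIs. Log2 ratios between libraries that changed sign were, with at least 2 Mmp12 UMIs, Cd5l (-0.12) and Cd84 (-0.059), and with under 5% mt- UMIs, Bach1 (-0.023). With thinning they were Rgs5 (1.94), S100a9 (0.35) and Spsb4 (-0.11). With at least 10 Mmp12 UMIs per 10000 they were Cd84 (-0.10), Meg3 (1.48), Mmp12 (-0.40), Prss46 (-0.75), Spp1 (-0.52) and Vcam1 (-0.57). A count of 0 was put at 3 counts in these ratios. The whole gate labelled KO held 4 Rgs5, 1 S100a9 and 1 Meg3 UMIs, so the signs of these 3 rest on few UMIs. The cause of the changes was not tested. Of the other values, 556 of named genes and 234 list medians stayed within counting error or the size limits set, and 152 and 74 moved. A change of sign was counted only for named genes whose main interval did not span 1, and not for list medians. The limit of at least 10 Mmp12 UMIs and the cells left out were chosen after the data were seen. Each group is 1 library, so leaving out a replicate was not possible, and no paired analysis was possible because no group has more than 1 library. Doublet removal took 6.06% and 6.44% of gate cells against 4.16% and 3.62% of the barcodes past the limits on genes and mt-. At 5000 UMIs per cell, T and NK cells gave 2 of 39 and 4 of 57 cells with an Mmp12 UMI, too few to set the background closely.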
